A study of Mus musculus with 9 samples.

Results

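Among 38685 genes and loci listed for mouse testis, 162 had counts in at least 2 of the 3 libraries from Prm2-/- males and 0 counts in all 6 libraries from Prm2+/- and Prm2+/+ males. These 162 genes were chosen by that pattern in the 9 libraries, so that their presence in Prm2-/- and absence elsewhere is the rule itself and not a result. Gucy2e, which met the same pattern with 64, 27 and 32 counts in replicates 1, 2 and 3 of Prm2-/-, was not counted among them. RNA came from whole testes, freed of the tunica albuginea, of C57BL/6 males with both Prm2 copies intact (Prm2+/+), with 1 copy deficient (Prm2+/-) or without functional Prm2 (Prm2-/-), with 3 biological replicates per genotype. The age of the males is not given in the sources used here, nor whether replicates shared a litter, so that p-values measure the spread between these samples. The Prm2-/- line was made by CRISPR/Cas9 editing in oocytes, and the labels name no allele for single males. Polyadenylated transcripts were read near their 3′ end with QuantSeq, and the deposited values are normalized counts, namely gene-level counts divided by 1 size factor per library. The values of each library rise in equal steps, so that undivided counts could be worked out from them, and these are given here as counts. They were derived from StringTie coverage, and 1 count is therefore an amount of coverage rather than a sequenced read.

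Protamines, which are thought to silence transcription, are small, arginine-rich proteins that replace histones in elongating spermatids and pack the sperm genome tightly. Round spermatids before that step transcribe a large part of the genome, including many genes whose products belong to other tissues, and the testis is known for such broad, low-level transcription. The same rule was applied to the Prm2+/+ and to the Prm2+/- libraries, to set the number, level and class of the genes seen in Prm2-/- alone beside those of the other genotypes. No other grouping of the libraries was drawn.

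The rule found 162 genes in Prm2-/-, 133 in Prm2+/- and 74 in Prm2+/+. As shares of the 38685 genes these were 0.419%, 0.344% and 0.191%. Counts in all 3 libraries of the genotype were found for 15 of the Prm2-/- genes, 12 of the Prm2+/- genes and 6 of the Prm2+/+ genes, and the other 147, 121 and 68 genes were missing from 1 library. Genes in all 3 libraries made up 9.26%, 9.02% and 8.11% of the sets, so that the order of the genotypes at these levels restates the set sizes. With a requirement of at least 10 counts summed over the 3 libraries, 32 genes remained in Prm2-/-, 18 in Prm2+/- and 8 in Prm2+/+. These were 19.8%, 13.5% and 10.8% of the sets. Since 1 number per genotype has no replicate, no test of these differences was made.

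**Figure D1:**
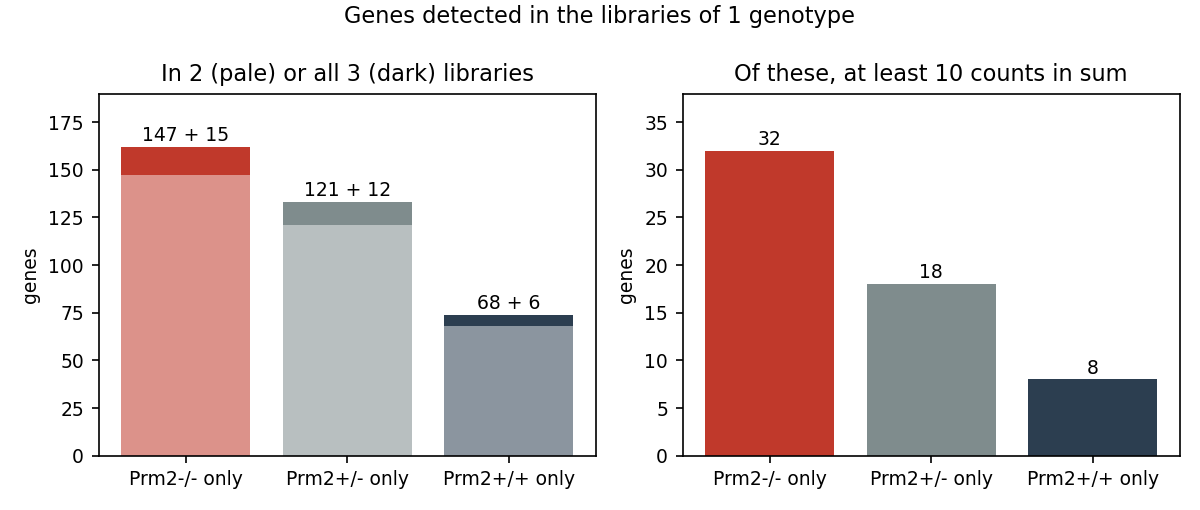
Number of genes (y axis) with counts in the libraries of 1 genotype and 0 in the other 6 (x axis), for genes in 2 libraries (pale) or all 3 (dark) on the left, and for those with at least 10 counts in sum on the right. The Prm2-/- set holds 147 and 15 genes, the Prm2+/- set 121 and 12 and the Prm2+/+ set 68 and 6, and with at least 10 counts 32, 18 and 8 genes remain.

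The libraries differed in depth and in how many genes they detected. Recovered counts summed to between 3768587 and 4366472 in Prm2-/-, between 3986477 and 4490411 in Prm2+/- and between 3629929 and 4170744 in Prm2+/+, so that Prm2+/+ was the shallowest genotype (11478120 counts over its 3 libraries, against 12110241 in Prm2-/- and 12783593 in Prm2+/-). Leaving the 3 single-genotype sets and Gucy2e aside, 19843 to 20407 genes were detected per library in Prm2-/-, 19792 to 20207 in Prm2+/- and 18982 to 20023 in Prm2+/+. Replicate 3 of Prm2+/+ had the lowest value, and the ranges of Prm2-/- and Prm2+/+ overlapped. The mean was 20146 ± 284 (SD, n = 3) in Prm2-/- and 19634 ± 568 (SD, n = 3) in Prm2+/+, a difference of 511.7 genes that did not pass a two-sided exact permutation test (p = 0.3). Against Prm2+/- (20011 ± 208, SD, n = 3) the difference was 134.7 genes (two-sided exact permutation test, p = 0.5), and 0.1 is the smallest p that 3 against 3 libraries can give. The part of depth and detection in the unequal set sizes was not tested. Genes seen in 1 library alone, a further measure of sparse detection, numbered 226 to 292 per Prm2-/- library, 235 to 257 per Prm2+/- library and 188 to 253 per Prm2+/+ library. The transcript of Prm2 was present in the 3 Prm2-/- libraries at 34660, 36004 and 42766 normalized counts, within or above the range of the other 6 (29716 to 39665), and does not check the labels.

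Most of the 162 genes were at the edge of detection. In 50 of them the evidence was 1 count in each of a pair of libraries, in 80 it was 3 to 9 counts in sum and in 32 at least 10, with 3 genes at 50 or more. The median sum was 5 counts over the 3 Prm2-/- libraries, against 4 in the Prm2+/- set and 4 in the Prm2+/+ set. The mean normalized count over the 3 Prm2-/- libraries ran from 0.64 to 42.8 with a median of 1.60. A library with 0 counts is compatible with an expectation of up to 3 counts, which is at most 3.31 normalized counts in these libraries and covers counting error only. For 31 of the 162 genes the Prm2-/- mean lay above this limit, against 17 of 133 in the Prm2+/- set and 8 of 74 in the Prm2+/+ set. For the other 131 genes the mean was within what 0 counts in a single library allow, although all 162 were at 0 in 6 libraries, and no fold change is given for them. Tmem151b and AC159244.2, the most abundant genes of the Prm2+/- set, had higher means (442 and 98.8 normalized counts) than any of the 162. Tmem151b, a membrane protein gene, had 784 and 624 counts in replicates 1 and 3 of Prm2+/- and 0 elsewhere, and the 3 highest genes of that set held 71.2% of its counts, against 21.9% in the Prm2-/- set and 25.3% in the Prm2+/+ set. It was followed by AC159244.2 (130 and 190 counts in replicates 1 and 3) and A730085K08Rik (57 and 62 in replicates 1 and 2). The highest Prm2+/+ genes were 1810012K16Rik (29 and 40 counts in replicates 1 and 2), Gm20470 (14 and 8 in replicates 1 and 3) and Tcea3 (7, 6 and 7).

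**Figure D2:**
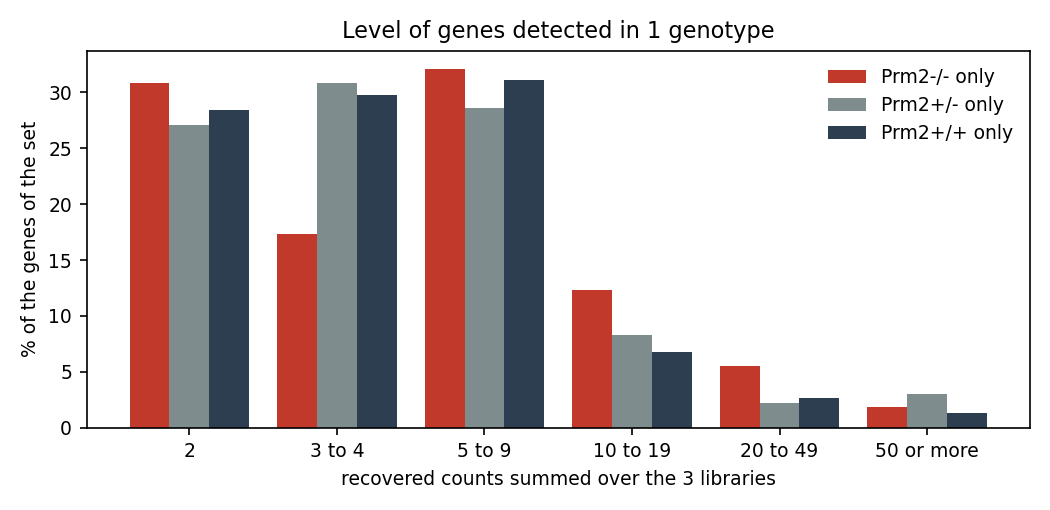
Share of each single-genotype set (y axis, % of its genes) by the recovered counts summed over the 3 libraries of the genotype (x axis, binned). A sum of 2 counts holds 30.9% of the Prm2-/- set, 27.1% of the Prm2+/- set and 28.4% of the Prm2+/+ set, and sums of 50 or more hold 1.85%, 3.01% and 1.35%.

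The rule asks for at least 2 libraries, and within it replicates 1, 2 and 3 detected 118, 115 and 106 of the 162 genes with 448, 433 and 426 counts. Of the genes in a pair of libraries, 56 were shared by replicates 1 and 2, 47 by replicates 1 and 3 and 44 by replicates 2 and 3. The next genes outside the rule show how narrow it is. A further 776 genes had counts in exactly 1 Prm2-/- library and 0 in the other 6, against 729 for Prm2+/- and 656 for Prm2+/+, led by Camsap3 (82 counts in replicate 3), Adad2 (80 in replicate 1) and Sacm1l (62 in replicate 3). Another 316 genes were in at least 2 Prm2-/- libraries and in exactly 1 of the 6 others, in 105 of them with a single count there. Of these, 1700020L24Rik had 633 and 239 counts in replicates 1 and 2 of Prm2-/- and 5 in replicate 1 of Prm2+/+, Man2b2 had 52, 64 and 87 counts in Prm2-/- and 64 in replicate 2 of Prm2+/-, and Acads had 56 and 45 counts in replicates 1 and 3 of Prm2-/- and 57 in replicate 3 of Prm2+/-. Genes with high counts in a few libraries and 0 in the rest thus lay on both sides of the rule, and Man2b2 and Acads reached a like count in a single Prm2+/- library.

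The 15 genes with counts in all 3 Prm2-/- libraries were 1300017J02Rik, AC152819.1, Ethe1, 2410137M14Rik, Snx20, Gm45505, Hapln1, Pyroxd2, Grem1, E330020D12Rik and, with 1 count in each library, Gm22993, Snord123, 5830462I19Rik, Gm5157 and Gm45786. The highest of them, 1300017J02Rik (ENSMUSG00000033688), encodes an inhibitor of carbonic anhydrase related to transferrin and spans bases 103250521 to 103305082 of chromosome 9 (GRCm38, minus strand). It had 34.4, 32.5 and 22.2 normalized counts in replicates 1, 2 and 3 of Prm2-/- (29.7 ± 6.58, SD, n = 3), all above the limit that 0 counts in a library allow. The mean was 8.96 times that limit, which treats counts as reads and covers counting error only. This ratio is a description, since the rule chose the gene by these values. The lncRNA AC152819.1 (chromosome 10, 9329851 to 9336618) had 33.5, 5.07 and 30.6 normalized counts, with replicate 2 far below the others. Ethe1, a mitochondrial enzyme of hydrogen sulfide breakdown (chromosome 7, 24587543 to 24608925), had 8.15, 6.09 and 9.50 normalized counts, and overlaps Zfp575, which had 0 to 2 counts in every library. 2410137M14Rik (chromosome 17, 36977701 to 36981237) had 3.62, 6.09 and 8.45 normalized counts and Snx20, a sorting nexin of blood cells, 1.81, 4.06 and 8.45, with replicate 1 the lowest in both. The lncRNA Gm45505 had 4.53, 3.04 and 4.22 normalized counts. Hapln1, which links hyaluronan and proteoglycans in cartilage matrix, had 3, 2 and 3 counts, the oxidoreductase gene Pyroxd2 3, 2 and 2, the BMP antagonist gene Grem1 2 in each library and the lncRNA E330020D12Rik 3, 1 and 1. Their means lay below the limit that 0 counts allow.

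**Figure D3:**
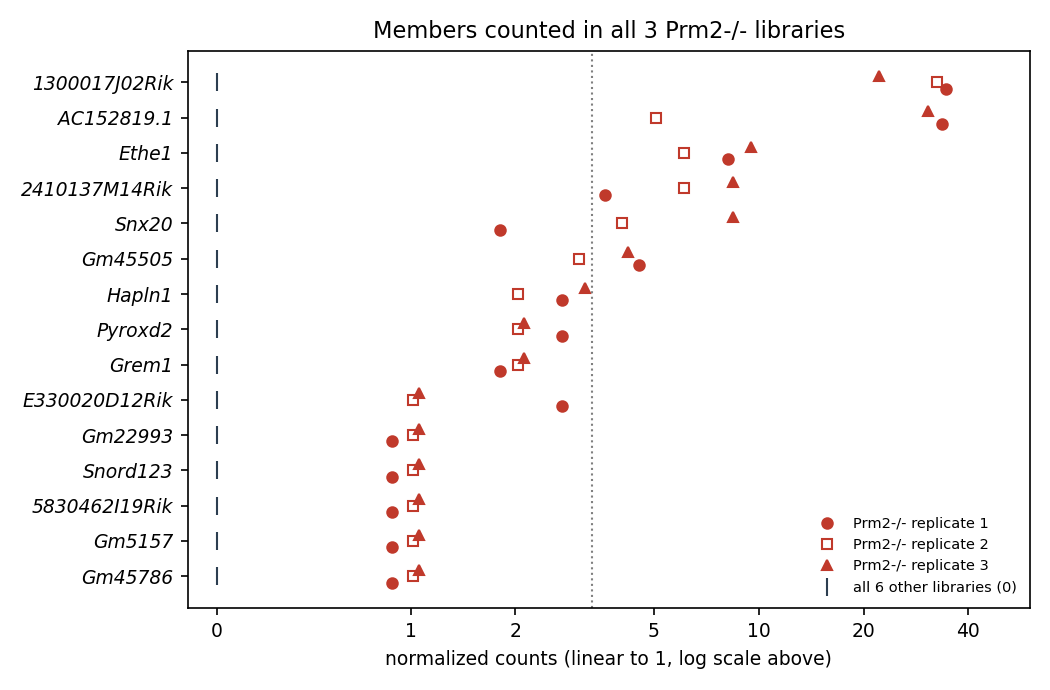
Normalized counts (x axis, linear up to 1 and logarithmic above) of the 15 genes with counts in all 3 Prm2-/- libraries (y axis), with 1 symbol per Prm2-/- replicate and a bar at 0 for the other 6 libraries. The dotted line marks 3.31, the most that 0 counts in a library allow; 1300017J02Rik, AC152819.1 and Ethe1 lie above it in every Prm2-/- library, and 2410137M14Rik does so as well.

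The promoter windows of 3 of these genes are shown to let their base composition be read beside the levels, in RefSeq's GRCm38.p6 annotation, from 250 bases before to 50 after an annotated start. Capitals mark a TATA box motif (TATAAA) or a GC box motif (CCGCCC) on either strand, which 14.2% and 35.9% of all 27025 RefSeq promoters of this length hold, 1 per gene. The cyclic AMP response element, spelled TGACGTCA or TGACGCAA and held by 1.88% and 0.511% of promoters, was searched as well and is in none of the 3. The motifs do not overlap each other in these windows. That of 1300017J02Rik (chr9:103288248-103288547, minus strand) lies inside the gene's GENCODE span rather than at its outer end, and holds 10 CG dinucleotides and none of the motifs, that of Ethe1 (chr7:24587293-24587592, plus strand) holds 17 and a GC box, and that of 2410137M14Rik (chr17:36981188-36981487, minus strand) holds 11 and a TATA box.
1300017J02Rik: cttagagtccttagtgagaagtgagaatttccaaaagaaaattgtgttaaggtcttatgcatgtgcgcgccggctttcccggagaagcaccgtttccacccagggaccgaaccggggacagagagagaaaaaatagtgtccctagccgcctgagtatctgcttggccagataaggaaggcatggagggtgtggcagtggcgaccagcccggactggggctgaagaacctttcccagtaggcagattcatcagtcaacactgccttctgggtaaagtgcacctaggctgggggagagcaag
Ethe1: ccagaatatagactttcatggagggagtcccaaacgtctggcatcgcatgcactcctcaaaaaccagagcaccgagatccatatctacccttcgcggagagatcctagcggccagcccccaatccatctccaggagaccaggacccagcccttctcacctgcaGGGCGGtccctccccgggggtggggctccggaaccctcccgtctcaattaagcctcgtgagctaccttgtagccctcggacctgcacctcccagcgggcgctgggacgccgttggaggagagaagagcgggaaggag
2410137M14Rik: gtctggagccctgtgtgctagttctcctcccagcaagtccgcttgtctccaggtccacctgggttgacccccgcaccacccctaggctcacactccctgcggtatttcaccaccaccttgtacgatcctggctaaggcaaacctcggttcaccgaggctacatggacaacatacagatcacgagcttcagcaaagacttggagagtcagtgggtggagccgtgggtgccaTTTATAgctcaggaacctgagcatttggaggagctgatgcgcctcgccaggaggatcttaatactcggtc
Of the 76 protein-coding genes of the set, 60 (78.9%) could be matched to a promoter, against 78.4% in the whole table and 67.8% in the Prm2+/- set. Since matching was incomplete in every set, no comparison of motif or CG content between sets is drawn.

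The table's type column named 76 of the 162 genes as protein-coding (46.9%), 43 as lncRNA (26.5%), 20 as TEC, a class of loci awaiting experimental support (12.3%), 7 as miRNA (4.32%), 4 as snRNA, 4 as misc_RNA, 3 as snoRNA, 3 as immunoglobulin variable segments and 2 as T cell receptor variable segments. Protein-coding genes made up 44.4% of the Prm2+/- set, 50% of the Prm2+/+ set, 45.8% of the 2271 genes found in exactly 2 or 3 of the 9 libraries and 54.3% of the whole table. The lncRNA share was 26.3% in the Prm2+/- set, 20.3% in the Prm2+/+ set and 26.2% among genes in 2 or 3 libraries. Both shares lay close to those of sparsely detected genes in general. The snRNA class held 4 of 162 genes (2.47%) in Prm2-/-, 12 of 133 (9.02%) in Prm2+/- and 9 of 74 (12.2%) in Prm2+/+, against 4.45% of genes in 2 or 3 libraries and 3.54% of the table. The highest gene of each small class was at the edge of detection, with 0, 3 and 2 counts for 4933423L19Rik (TEC), 0, 1 and 2 for Gm22509 (snRNA) and 1, 2 and 0 for Gm24047 (miRNA). The 5 antigen receptor variable segments were Ighv1-84 (4, 4 and 0 counts in replicates 1, 2 and 3), Ighv1-75 (2, 1 and 0), Ighv1-56 (1, 1 and 0), Trav3d-3 (1, 1 and 0) and Trav3n-3 (1, 1 and 0). The last pair are near-identical segments that can share reads, and all 5 were missing from replicate 3. Immunoglobulin variable segments made up 1.85% of the set, 0.22% of genes in 2 or 3 libraries and 0.564% of the table, and T cell receptor variable segments 1.23%, 0.176% and 0.37%. The other 2 sets held no variable segment (0 of 133 and 0 of 74) but 1 other receptor segment each, a joining segment of a T cell receptor in Prm2+/- and a constant segment of an immunoglobulin in Prm2+/+.

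**Figure D4:**
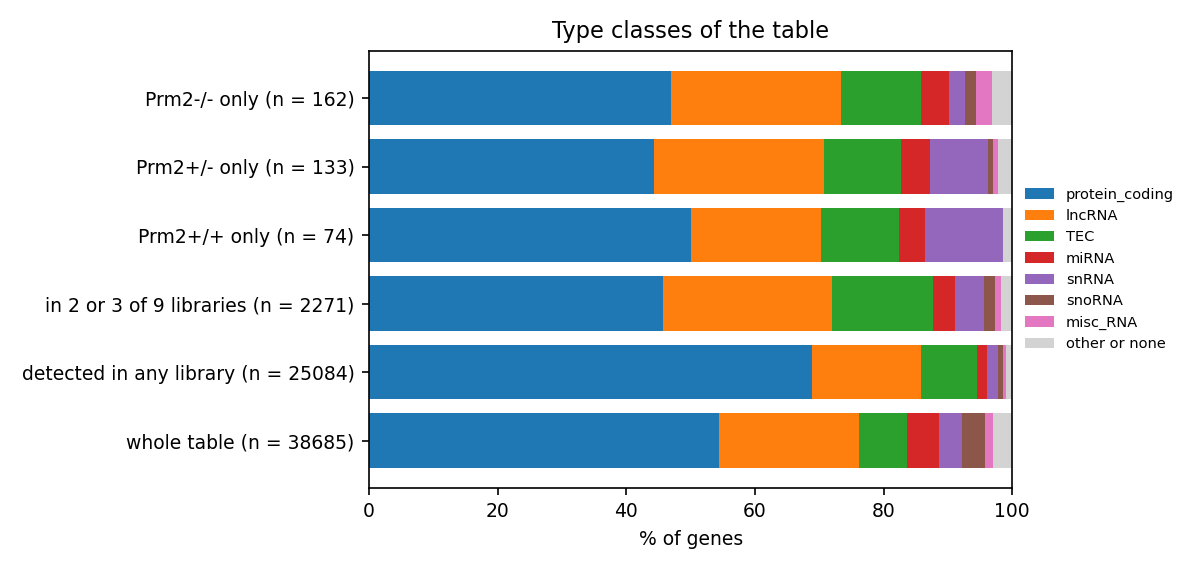
Share of genes (x axis, %) by the type class of the deposited table for the 3 single-genotype sets, the genes in 2 or 3 of the 9 libraries, the genes detected in any library and the whole table (y axis). Protein-coding genes form 46.9% of the Prm2-/- set, 45.8% of genes in 2 or 3 libraries and 68.8% of all detected genes.

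Gene families, only some of them silent in most tissues, and classes of gene names were looked for by symbol. Of the solute carriers listed, 315 of 371 had counts in at least 1 library, and of the zinc finger genes 372 of 386. Olfactory receptors, which are expressed singly in nose neurons and at low levels in testis, numbered 5 in the Prm2-/- set (3.09%; Olfr424, Olfr366, Olfr477, Olfr645 and Olfr1506, with 2 to 4 counts each), 8 in the Prm2+/- set (6.02%) and 5 in the Prm2+/+ set (6.76%), against 5.86% of genes in 2 or 3 libraries. Vomeronasal receptors gave 1 gene in each set, in Prm2-/- Vmn2r69 with 0, 1 and 5 counts. Keratins, keratin associated proteins, Hox genes, beta defensins, major urinary proteins and trace amine receptors gave no gene (0) in the Prm2-/- set, cytochromes P450 1 (Cyp2d9; 0.617%, against 0.308% of genes in 2 or 3 libraries), solute carriers 2 (Slc15a2 and Slc6a2; 1.23%, against 1.23%) and zinc finger genes 3 (Zfp521, Zfp804b and Zfp948; 1.85%, against 0.572%). Zinc finger genes made up 2.26% of the Prm2+/- set and 1.35% of the Prm2+/+ set. Predicted genes with Gm symbols made up 35.2% of the Prm2-/- set, 40.6% of the Prm2+/- set and 43.2% of the Prm2+/+ set, against 40.1% of genes in 2 or 3 libraries. Riken clones made up 9.26%, 4.51% and 2.70% of the 3 sets, against 7.57% of genes in 2 or 3 libraries.

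Of the miRNA class, 1 of 7 genes, Mir7678, could be matched to mature sequences, which are shown with the seed (bases 2 to 8) in capitals because this gene shares its locus with another member. Poly(A)-primed libraries do not measure mature miRNAs, so that the counts are those of transcripts over the hairpin.
mmu-miR-7678-5p: uUACAAGGgcuggauaggaau
mmu-miR-7678-3p: uUUCCUUAcuuucucuuguagc
Mir7678 lies within the span of Slpi, which encodes a secreted inhibitor of leukocyte proteases, on chromosome 2. Both are on the minus strand and had 0, 1 and 1 counts in replicates 1, 2 and 3 of Prm2-/-. Whether Mir7678 and Slpi share this coverage was not tested. Further pairs of members within 100 kb of each other were 2 in number: Gm43830 and Gm43321 at 27510 bp, and AU023070 and Zar1 at 79702 bp, both on chromosome 5. The 162 genes lay on 21 chromosomes. Chromosome 7 held more of them than any other (19 genes, 11.7%), and it also holds the most genes of the table (8.71%), with 17.6% of the Prm2+/+ set and 8.27% of the Prm2+/- set.

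Of the protein-coding and receptor segment members, 66 were sorted by known role into 8 groups after their values had been seen, and the groups are a description. Secreted signals and their modulators included Wnt3a, Fgf6, Gdf5, Lefty2, Grem1 and Wisp2. Wnt3a, a ligand of the canonical Wnt pathway, was the highest with 0, 5 and 8 counts in replicates 1, 2 and 3, and Lefty2, an antagonist of Nodal, had 4, 2 and 0. Of those named, Grem1 was found in every Prm2-/- library. Among 14 receptors and channels, Fgfr4, a receptor of fibroblast growth factors, had 12, 8 and 0 counts and was the sole gene of the group with at least 10, while Trpv4, a calcium channel that responds to osmotic stress, had 0, 2 and 6 and the receptor of corticotropin-releasing hormone, Crhr1, 3, 0 and 2. No gene of this group (0) was found in all 3 libraries.

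Enzymes of metabolism formed the group with the most counts, 211 over 10 genes, of which Ppox supplied 124. Beside Ppox and Ethe1, Bco2, which cleaves carotenoids, had 0, 6 and 7 counts and Ggt1, a gamma-glutamyl transferase of glutathione metabolism, 0, 4 and 5. Of 14 immune and blood protein genes, Ly6d, a surface marker of lymphoid progenitors, had 18, 8 and 0 counts, Ifitm1, an interferon-induced membrane protein gene, 9, 4 and 0, H2-M3, a non-classical MHC class I gene, 4, 0 and 5 and C6, a complement component, 0, 3 and 4. Summed immune cell markers are given beside them, and their part was not tested. The 5 T cell markers summed to 119 to 133 normalized counts in Prm2-/-, 141 to 153 in Prm2+/- and 151 to 201 in Prm2+/+. Nearly all of each sum was Cd3d (117 to 133, 141 to 151 and 151 to 201). Cd3g and Cd8a were at 0 in every library, and Cd4 lay between 0 and 4.06. The 5 markers of B and plasma cells summed to 1.81 to 4.22 in Prm2-/- and 0 to 15.5 in Prm2+/+, with Cd79a and Cd79b at 0. Macrophage markers (5 of 5 detected) summed to 158 to 204 in Prm2-/- and 146 to 189 in Prm2+/+. In bulk testis, fewer cells of a type and less RNA per cell cannot be told apart.

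A group of 6 members belongs to germ cells by background knowledge. Dcst2, a sperm membrane protein gene needed for fertilization, had 0, 8 and 8 counts, and Pnldc1, the enzyme that trims piRNA precursors in male germ cells, 6, 0 and 8. Oog1 and Zar1, genes of oocytes, had 1, 0 and 2 counts and 1, 0 and 1. Gm2042, a member outside this group, had the same counts as Oog1 and a nearly identical promoter window. Whether Oog1 and Gm2042 share reads was not tested. Magea3, a cancer-testis antigen gene, had 1, 1 and 0 and Nutm2 2, 3 and 0. Both Dcst2 and Pnldc1 are known from normal testis, yet had 0 counts in every Prm2+/+ library. Dcst2 overlaps Dcst1, which had 156 to 235 counts in every library. Ush1c, a scaffold protein gene of sensory hair bundles, led the scaffold, matrix and cytoskeleton group with 10, 24 and 0 counts, and Capg, an actin capping protein gene, had 4, 6 and 0.

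Overlapping genes are uncertain, since no use of strand in the counting is stated in the sources used here. Of the 162 genes, 69 (42.6%) overlapped another gene of the table in GENCODE M21, against 44.5% of the table, 50.8% of the Prm2+/- set and 45.9% of the Prm2+/+ set, and 33 (20.4%) overlapped a gene with at least 10 counts in every library, against 20.8% of genes in 2 or 3 libraries. Without overlapping genes, 93 genes remained in Prm2-/-, 65 in Prm2+/- and 40 in Prm2+/+. In addition, 69 of the 162 (42.6%) stood under an identifier of a transcript assembly by StringTie (MSTRG), against 59.0% of the table and 43.3% of genes in 2 or 3 libraries. An overlap touches the highest gene of the set. Ppox, the penultimate enzyme of heme synthesis (chromosome 1, 171275990 to 171281186, minus strand), had 0, 62 and 62 counts in replicates 1, 2 and 3 of Prm2-/- and 0 in all others. Its neighbour B4galt3, a galactosyltransferase gene whose end overlaps Ppox on the other strand, was listed at 0 in 8 libraries and at 68 in replicate 2 of Prm2+/-. Usp21, the next gene on the other side, had 55 to 94 counts in all 9 libraries. Replicate 1 of Prm2-/- thus shared its 0 in Ppox with the 6 control libraries, and a high value at this locus was also seen once among the controls, in the overlapping gene. Another member, Gm15343 (4, 8 and 0 counts in Prm2-/-), overlaps Spatc1l. Spatc1l had 529, 541 and 534 counts in Prm2-/- and 540 in replicate 1 of Prm2+/-, but 6 to 27 in the other 5 libraries. The libraries divided otherwise for Gm15343, which was at 0 in replicate 3 of Prm2-/- and replicate 1 of Prm2+/-. Whether the assignment of coverage sets these values was not tested.

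**Figure D5:**
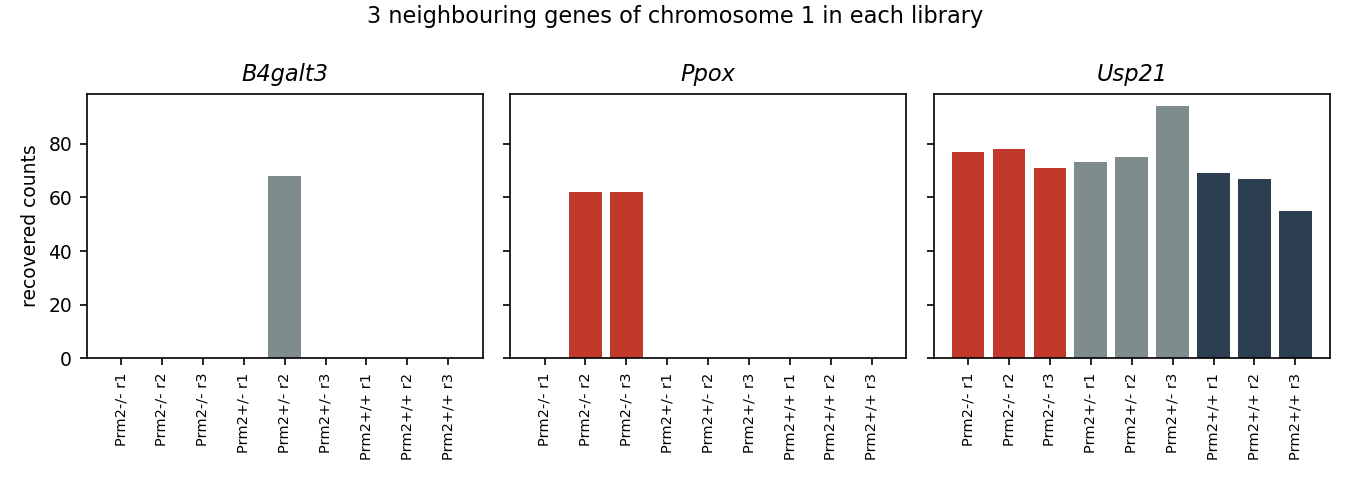
Recovered counts (y axis) of B4galt3, Ppox and Usp21, neighbouring genes of chromosome 1, in each of the 9 libraries (x axis, r1 to r3 are replicates, red for Prm2-/-, grey for Prm2+/- and dark for Prm2+/+). Ppox has 62 counts in 2 Prm2-/- libraries and 0 in the other 7, B4galt3 68 counts in 1 Prm2+/- library, and Usp21 55 to 94 in all 9.

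Markers of testicular and other cell types were given beside the set, and none of the 15 lists, nor the 14 spermatid chromatin genes in the table, held a member (0). The 6 markers of elongating spermatids, the cells in which protamines are laid down, were present in all 9 libraries. They summed to 196586 to 205998 normalized counts in Prm2-/-, 199119 to 212367 in Prm2+/- and 203842 to 218478 in Prm2+/+, ranges that overlapped. Prm1 and Tnp1 supplied most of each sum. Tnp1 alone ran from 62524 to 65668 in Prm2-/-, 65183 to 70894 in Prm2+/- and 66174 to 72964 in Prm2+/+. Its Prm2-/- and Prm2+/+ ranges lay apart, and the Prm2+/- range overlapped both. Prm1, Tnp2, Odf1 and Gapdhs overlapped between Prm2-/- and Prm2+/+. How many genes of the table lay apart in this way was not tested. Akap4 had 1980 to 2148 in Prm2-/-, but 272 in replicate 3 of Prm2+/- and 208 and 194 in replicates 1 and 3 of Prm2+/+. In the remaining libraries Akap4 had 1910 to 2133. Markers of epididymis epithelium, a tissue that can adhere to the testis, summed to 20.3 to 32.7 in Prm2-/- and 34.3 to 52.3 in Prm2+/+. The Prm2+/- range, 24.7 to 37.5, overlapped both, and Lcn5, Lcn8 and Lcn9 were at 0 in all libraries. Most of each sum was Rnase10, whose ranges overlapped (17.2 to 32.7 in Prm2-/- and 26.6 to 36.4 in Prm2+/+), and Adam7 and Cst11 were counted in replicate 1 of Prm2+/+ alone. Markers of efferent ducts and rete testis summed to 54.9 to 58.0 in Prm2-/-, 32.6 to 79.5 in Prm2+/- and 26.5 to 49.3 in Prm2+/+. Aqp1, a water channel gene, set this difference, with 15.4, 21.3 and 12.7 normalized counts in Prm2-/-, 30.0 in replicate 3 of Prm2+/- and 0 in the other 5 libraries, while Esr1 and Krt8 overlapped between the genotypes and Pax8 and Krt18 were at 0. The part of these cells in the set was not tested. Erythrocyte markers overlapped, at 804 to 1264 in Prm2-/- and 676 to 1188 in Prm2+/+.

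In the fit across all genes between Prm2-/- and Prm2+/+ (limma, with 1 added to each normalized count before taking log2, 14893 genes with enough counts, all 9 libraries), 23 genes were called higher at an adjusted p under 0.05 and an LFC over 0.5, which is 0.154% of those tested. Of the 162 genes, 1 had enough counts in every Prm2-/- library for this fit, 1300017J02Rik. It was called (LFC 4.92 on this scale, standard error 0.61, adjusted p = 0.0274 in limma). Since the rule used the same contrast, the call is no support for the set, and the LFC of a gene at 0 depends on the added constant. The call was lost in edgeR (adjusted p = 0.147), with a pseudocount of 0.5 (adjusted p = 0.164 in limma) and without any 1 of the 3 Prm2-/- libraries (adjusted p = 0.128 to 0.292 in limma), and it held in DESeq2 (adjusted p = 5.98e-05). The remaining genes did not reach the count minimum of this fit in as many libraries as a genotype has. A member is at 0 in all other genotypes, so it could pass through Prm2-/- alone. Any member at 0 in 1 Prm2-/- library failed whatever its level, as Ppox did with 0, 62 and 62 counts.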

How the data were processed

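Testes of 9 males were profiled, 3 for each genotype. The submitters' processing notes name Trim Galore 0.4.5. Per the study's methods, the authors mapped reads to GRCm38 with HISAT2 2.1, quantified genes with StringTie 1.3.3 and its count script, and removed pseudogenes. The deposited values are a signal, namely counts that the authors divided by 1 size factor per library. In every column, 100% of values lay within 0.001 of a whole number of steps, a weaker sign for replicate 1 of Prm2+/-, whose step is near 1. Columns that match no sample numbered 0. Positions are from GENCODE M21 (99.6% of genes matched).

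Members and lists were chosen with earlier results of these data known. Named were, by rule, up to 25 members counted in all 3 Prm2-/- libraries, the highest of each type class, up to 4 of each family, the 3 highest genes on each side of the rule and of each other set. Others were chosen after their values were seen, as was the last of the olfactory receptors. The values of 1 member are not reported here.

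Tests used limma 3.58.1 (trend; genes kept by filterByExpr), with edgeR 4.0.16 and DESeq2 1.42.0 as alternatives (R 4.3.3), and scipy 1.17.1 for exact permutation tests (Python 3.11.15).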

Additional observations from a re-analysis of the deposited data

How the results depend on the processing

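Requiring counts in all 3 libraries gave 15, 12 and 6 genes for Prm2-/-, Prm2+/- and Prm2+/+, any 1 library 938, 862 and 730, at least 10 counts in sum 32, 18 and 8, up to 1 count in the other 6 libraries 267, 227 and 171, no overlapping gene 93, 65 and 40, and at least 1 CPM in 2 libraries 29, 13 and 9. Prm2-/- had the most genes under each of these 6 settings, which vary the same rule and are not independent. The sets of 162, 133 and 74 genes ranged from 59 to 241, 41 to 191 and 23 to 113 with each library left out in turn. The low values come from leaving out a library of the own genotype, since the rule then asks for both that remain (59, 62 and 71 without replicates 1, 2 and 3 of Prm2-/-, 64, 41 and 52 for Prm2+/- and 23, 29 and 34 for Prm2+/+). The Prm2+/+ set rose to between 110 and 113 without any 1 library of Prm2-/- or Prm2+/-, where fewer libraries have to be at 0.

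Of the set, 1 gene was called higher than in Prm2+/+ in limma. The number was 0 with a pseudocount of 0.5 and 0 in edgeR (1 with an unadjusted p under 0.05). It was 2 of 162 tested in DESeq2 and 6 of 162 tested with a count above 0 as the sole filter. With each library left out it was 0 to 1 (0 without replicate 2 or 3 of Prm2-/-, and without replicate 1 the called gene was Ppox). Over all genes, 23 of 14893 tested were called in limma. The number was 104 of 25084 tested in DESeq2 and 31 of 25084 tested with a count above 0 as the sole filter. It was 44 with only the 6 samples compared and 20 to 60 with each library left out (60, 48 and 41 without replicates 2, 1 and 3 of Prm2+/+, 35 without replicate 1 of Prm2+/-). With the replicate number as a block, 0 genes of the set and 14 of all genes were called, but same-numbered libraries did not deviate together (correlations of -0.0365 to 0.0423) and share only a number. The cause of these changes was otherwise not tested. The limit of 3 counts is that of a single library at 0, not of 6 together, and 131 of the 162 genes had a mean within it.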

Other observations

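Of the 32 members with at least 10 counts, 26 were at 0 in 1 Prm2-/- library and 6 were counted in all 3. Examples were chosen after their values were seen. Camk1g, a calmodulin-dependent kinase gene, had 16, 8 and 0 counts in replicates 1, 2 and 3, Tmem198, a membrane protein gene that overlaps Obsl1, 0, 18 and 8, Ambp, the precursor of alpha-1-microglobulin and bikunin, 10, 0 and 7, and the homeobox gene Meis3 6, 0 and 8. The lncRNA genes Gm14024 (17, 12 and 0), 4930587A21Rik (19, 0 and 5) and AC164662.1 (3, 0 and 17) were also at 0 in 1 library. Gm14024 overlaps Ckap2l, which had 435 to 634 counts in all 9 libraries. Ly6g5b had 0, 6 and 6 counts beside Csnk2b, which had 2264, 337 and 2823 counts in Prm2-/- and 229 in replicate 1 of Prm2+/+ against 1905 to 2241 in the other 5 libraries.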
